A study of Mus musculus with 12 samples.

Results

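The UDP-glucuronosyltransferase 2A (Ugt2a) genes of the mouse were described in C18-4 cells, an immortalized mouse line used in culture as a stand-in for spermatogonial stem cells. The 3 members are Ugt2a1, Ugt2a2 and Ugt2a3. The set was selected on a rise after knockdown in these same libraries, so its difference between knockdown cells and their control is given as a description with no test. The deposited table lists 17576 genes, and 2 of the 3 members are among them. Ugt2a3 is not listed and has no value here. Only Ugt2a2 reached 1 RPKM in at least 3 libraries, the filter that 11435 genes passed, and it did so through the knockdown libraries alone.

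The study asked how a long noncoding RNA, lncRNA5251, acts on spermatogenesis, and it sequenced 12 libraries in 4 groups of 3. Knockdown cells (KD) stably carried the lentiviral vector LV3 with a mixture of shRNAs against lncRNA5251, and 3NC cells carried LV3 with a control shRNA. Cells labelled as overexpressing it (OV) carried the vector LV5 with lncRNA5251, and 5NC cells carried LV5 without it. The strain is labelled IRC mouse. Nothing states that the libraries of a group came from separate cultures or clones, so p-values measure the spread between these libraries only. Values are RPKM, a read number divided by gene length and library size.

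UDP-glucuronosyltransferases are membrane enzymes of the endoplasmic reticulum that join glucuronic acid from UDP-glucuronic acid to small lipophilic molecules such as drugs, steroids, bile acids and odorants. The conjugates dissolve in water and leave the cell through export pumps. UGT2A1 and UGT2A2 are best known from the olfactory epithelium and UGT2A3 from liver and intestine. In the Ugt2a genes the first coding exon encodes most of the part that binds the acceptor molecule. The later exons encode the rest of it and the part that binds UDP-glucuronic acid.

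The genes were compared as annotated in GENCODE on genome build GRCm38, because reads from a shared exon fit both genes. All 3 lie on the minus strand of chromosome 5. Ugt2a1 spans chr5:87459490-87490871 and Ugt2a2 lies inside it at chr5:87459490-87482260. Ugt2a3 is a separate gene at chr5:87324972-87337195. The main transcripts of Ugt2a1 and Ugt2a2 have 7 exons each, and the last 5 are the same exons. They make up 1771 bases, which is 69.75% of the Ugt2a2 mRNA and 68.91% of the Ugt2a1 mRNA, and they hold 866 of the 1584 coding bases of each gene. Ugt2a2 has 768 bases of its own and Ugt2a1 has 799. A short annotated transcript of Ugt2a2 has 929 bases in 6 exons and lacks the coding exon that is particular to Ugt2a2. The first coding exons of Ugt2a1 and Ugt2a2 were identical at 59.92% of aligned positions, and those of Ugt2a2 and Ugt2a3 at 53.49%. Over the remaining coding exons Ugt2a3 was identical to Ugt2a2 at 83.77% of positions.

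The exon boundary at which the gene-specific and the shared parts meet is shown here because it separates the members. Lower case marks the last 15 bases of each gene's own first coding exon, and capitals mark the first 15 bases of the next exon, on the minus strand of GRCm38. The boundary lies between chr5:87486029-87486043 and chr5:87465542-87465556 in Ugt2a1, between chr5:87474390-87474404 and the same chr5:87465542-87465556 in Ugt2a2, and between chr5:87336443-87336457 and chr5:87331352-87331366 in Ugt2a3.
Ugt2a1: atactaaagctttagGAAGACCCACCACAC
Ugt2a2: acagcaaagttctagGAAGACCCACCACAC
Ugt2a3: acagtgaaaccctagGAAGGCCCACAACGT
All of these boundaries are coding sequence. The 15 bases in capitals were the same in Ugt2a1 and Ugt2a2, and 11 of the 15 were the same in Ugt2a3. In the lower-case part 10 of 15 bases of Ugt2a1, and 10 of 15 of Ugt2a3, matched Ugt2a2.

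**Figure D1:**
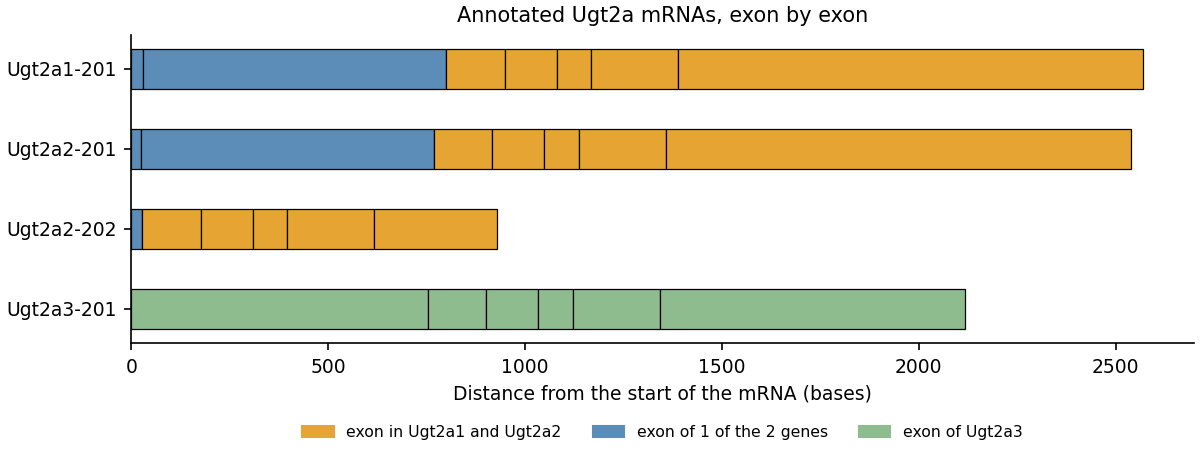
Annotated Ugt2a mRNAs drawn from their start, in bases, with 1 block for each exon. Orange blocks lie in both Ugt2a1 and Ugt2a2, blue blocks in 1 of these genes (the last exon of the short Ugt2a2 transcript is a shortened form of the shared one), and green blocks in Ugt2a3. The 5 shared exons make up 1771 bases at the right of the 2 upper bars.

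The sharing was measured in stretches of 50 bases. Of 2490 such stretches in the Ugt2a2 mRNA, 1725 also occurred in Ugt2a1 and 38 in Ugt2a3. A further annotated gene model of the same locus, Gm43638, which is not listed in the deposited table, held 1427 of them. Only 136 stretches, 5.46%, were in Ugt2a2 and no other annotated gene. Ugt2a1 had 75 of 2521 to itself, 2.98%, while Ugt2a3 had 1974 of 2068, 95.45%. The table gives 1 value per gene, so reads over the own exons of Ugt2a2 and reads over the shared exons cannot be told apart, and the study's aligner settings ask for all hits of a read that fits several places, but how such reads were counted per gene is not given in the sources used here.

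Ugt2a2 (Entrez gene 552899) was listed at 0 RPKM in all 3 libraries of 3NC. Its level in KD was 5.63, 5.57 and 6.80 RPKM in replicates 1 to 3, a mean of 6.0 ± 0.69 (SD, n = 3). In 5NC it was 0, 0 and 0.03 RPKM, and in OV it was 0 in all 3 libraries. Thus the lowest KD library stood above each of the other 9 libraries, as it did for 20.5% of all genes tested. The other 3 groups overlapped at or next to 0. No fold is given against a group listed at 0. The difference of log2(RPKM + 1) between KD and 3NC was 2.80 with an SE of 0.08, a value that depends on the added 1, and the genes had been chosen for this difference.

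Ugt2a1 (Entrez gene 94215) was listed at 0 RPKM in all 12 libraries, KD included. The 2 genes therefore did not move together in the table, although most of their mRNA is the same. The value listed for Ugt2a2 and the 0 listed for Ugt2a1 show how reads were assigned in the table. They do not measure the own first exon of either gene.

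**Figure D2:**
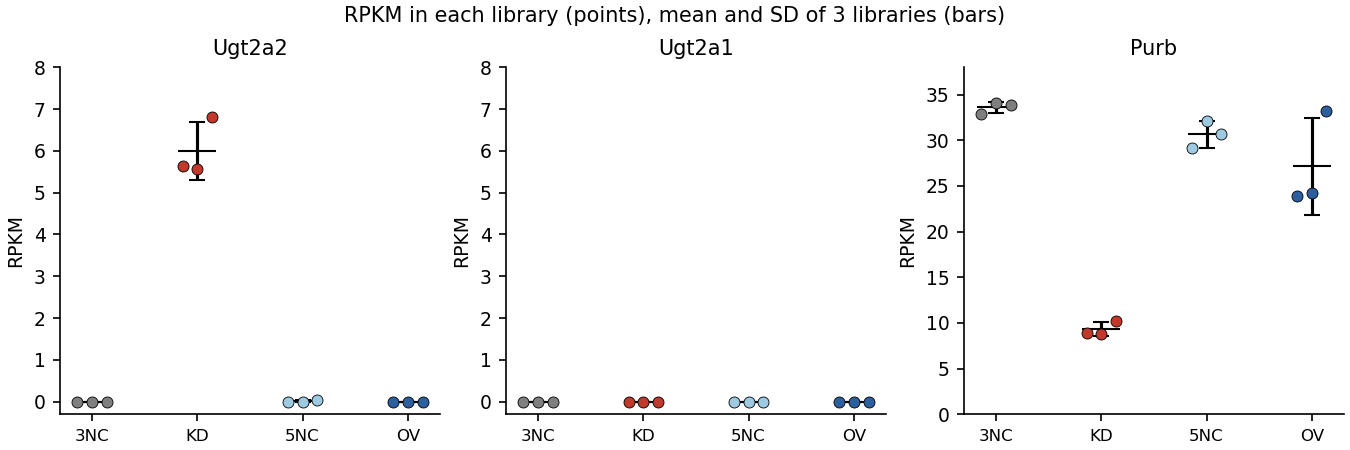
RPKM of Ugt2a2, Ugt2a1 and Purb in each of the 12 libraries (points), with the mean and SD of the 3 libraries of a group (bars). Ugt2a2 lies between 5.57 and 6.80 RPKM in KD and at 0.03 or below elsewhere, Ugt2a1 is at 0 throughout, and Purb is at 10.25 RPKM or below only in KD.

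The level in KD was a middling one. Ugt2a2 ranked 8436 of 17576 genes by its mean there, above 51.98% of them, while the median of genes above 0 was 7.45 RPKM. Its coefficient of variation over the 3 libraries was 11.6%, against a median of 7.59% and an interquartile range of 4.82% to 10.98% for the 1020 genes within 1.2-fold of its level. Of those genes 22.2% varied more. The spread among the knockdown libraries was thus above the interquartile range of genes at this level.

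The table holds RPKM and no read counts, and depth was estimated from the smallest nonzero values of genes with a single annotated transcript. The estimate was 12950000 to 14160000 reads per library, and 1 read on Ugt2a2 was then worth 0.0278 to 0.0304 RPKM. On this scale the KD libraries held about 202, 194 and 231 reads of Ugt2a2, and the 0.03 RPKM of 5NC replicate 3 was about 1 read. These read numbers are approximate, since they take the gene length from the GENCODE annotation and not from the authors' reference. The estimated depth of KD, 13400000 to 14160000 reads, overlapped that of 3NC, 13630000 to 13720000. That of 5NC was 12950000 to 13980000, and OV lay above 3NC at 13880000 to 14010000.

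The comparison of OV with 5NC was not used to choose the members, and the summed level was tested. The summed RPKM of the listed members differed by -0.01 between OV and 5NC (exact permutation test, two-sided, p = 1.0, n = 3 in each group). With 3 libraries against 3 this test cannot give a p below 0.1. The sum was that of Ugt2a2 alone, at 0 in 5 of these 6 libraries. Every split of the 6 thus gave the same absolute difference, so the p was fixed in advance and nothing is drawn from it. Ugt2a2 passed the filter through KD alone and was at 0 in 5 of these 6 libraries, so no test of it from the fit across genes is given. Across all 11435 genes tested, limma called 0 higher (0% of those tested) and 0 lower (0%) in OV at the study's threshold. That threshold is an adjusted p of at most 0.001 with an absolute log2 difference of at least 1. The study applied it with DEGseq and reported genes in both directions in OV, so the counts are not comparable. In limma 4240 genes had an unadjusted p under 0.05. At a wider limit, an adjusted p up to 0.05, 8.07% of genes were higher and 13.9% were lower. With both groups at or next to 0, a fall of Ugt2a2 could not be detected at this depth.

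Purb, the gene of the protein Pur-beta that binds purine-rich DNA and RNA, was read because lncRNA5251 has no row of its own. The 3 targeting shRNA sequences of the study, 21 bases each, matched Purb exactly and no other gene among 141767 GENCODE transcripts. None matched a Ugt2a gene on either strand. Since they match Purb itself, its level in KD is no measure of lncRNA5251. A loss of Purb and a loss of lncRNA5251 cannot be told apart in KD. Purb was at 32.92, 34.11 and 33.84 RPKM in 3NC and at 8.93, 8.79 and 10.25 RPKM in KD, with no overlap, as for 27.1% of all genes, which were lower in KD without overlap. Its difference was -1.75 on the log2(RPKM + 1) scale (SE 0.10, limma adjusted p = 1.69e-09). In OV, replicates 1 and 2 had 23.94 and 24.20 RPKM and replicate 3 had 33.25, next to 29.18 to 32.09 in 5NC, a difference of -0.19 that did not pass the test (limma adjusted p = 0.18). Without OV replicate 3 it was -0.34 (limma adjusted p = 0.00111), past the wider limit described above. A rise of Purb was thus not detected in the libraries labelled as overexpression, and no direction for Ugt2a2 was drawn from that group.

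Genes that behaved as Ugt2a2 did were rare in the table. Of 2154 genes listed at 0 in all 3NC libraries, 1 reached 1 RPKM in all KD libraries, and it was Ugt2a2. As Ugt2a2 had been chosen for its rise in these libraries, the count is a description and no test. At a lower limit of 0.3 RPKM, chosen after the values were seen, there were 4, with Gm35498, Rbp7 and Mageb16 beside it. Rbp7, which binds retinol in the cell, was at 0.31 to 0.41 RPKM in KD and at most 0.09 elsewhere. Gm35498 was at 0.35 to 0.89 RPKM in KD but reached 0.51 in 5NC, so that it overlapped that group. Mageb16, of the MAGE family of germ line and tumour antigens, was at 0.36 to 0.63 RPKM in KD and at most 0.12 elsewhere. No gene at 0 in all KD libraries reached 1 RPKM in all of 3NC, and there was none between 5NC and OV in either direction. At 0.3 RPKM there were 2 in the reverse direction, Gm8271 and Prl2c2, and 0 between 5NC and OV.

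The distance from the other groups was also large beside that of other genes. Since Ugt2a2 had been picked for it, this is a description. The lowest KD library of Ugt2a2 was 186 times the highest of the other 9 libraries, whose highest value is about 1 read. Gm10058 followed at 6.60 times, Gm16404 at 4.65, C130026I21Rik at 3.38 and Cd177, a surface glycoprotein of neutrophils, at 3.01. These 5 were the only ones of the 11435 genes tested with a ratio of at least 3.

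The genes with the profile most like that of Ugt2a2 were ranked by the root mean square difference of their values, each scaled to the highest library, over 12 libraries. The nearest was Gm16404 at a difference of 0.08, followed by Gm10058 at 0.11, C130026I21Rik at 0.13, Csn3 at 0.15 and Tmem47 at 0.16, against a median of 0.72 over all genes compared. Gm16404, Gm10058 and Tmem47 lie on chromosome X, C130026I21Rik on chromosome 1 and Csn3 on chromosome 5. Gm16404 was at 4.79, 5.97 and 7.26 RPKM in KD, at 1.03, 0.39 and 0.89 in 3NC and at 0.12 to 0.61 in the LV5 groups. Tmem47, which encodes a transmembrane protein of cell junctions, was at 2.94 to 4.08 RPKM in KD, 1.0 to 1.1 in 3NC, 0.50 to 0.67 in 5NC and 0.27 to 0.53 in OV. Unlike Ugt2a2, all 5 genes were above 0 in every 3NC library. Ranked by Spearman correlation instead, none of the 5 was among the first 5.

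**Figure D3:**
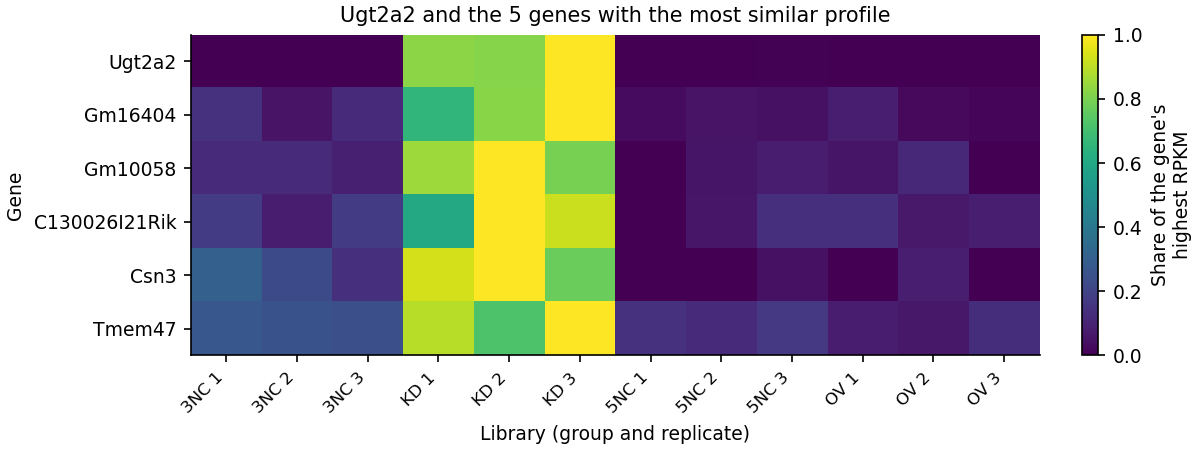
Ugt2a2 and the 5 genes with the smallest root mean square difference from it, each as a share of its own highest RPKM (colour, 0 to 1), in 12 libraries (columns). All 6 genes peak in KD, and Ugt2a2 alone is at 0 in all 3 libraries of 3NC.

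The neighbours of the Ugt2a genes on chromosome 5 were read in the same way. Within 1000 kb on each side of the cluster GENCODE annotates 79 other genes, 37 of them protein coding, and 17 of them are listed in the table. Of these 17, 13 stayed below 0.1 RPKM in all 12 libraries and 2 passed the filter. The UGT2B genes of the same cluster, Ugt2b1, Ugt2b34, Ugt2b35, Ugt2b36 and Ugt2b37, were at 0.06 RPKM or below in every library. Thus a listed gene beside Ugt2a2 was as a rule silent or nearly so in all groups.

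Csn3, which encodes kappa-casein of milk, lies 443.3 kb from Ugt2a2 and was highest in KD. It was at 1.88, 2.01 and 1.55 RPKM in KD and at 0.62, 0.45 and 0.27 in 3NC, and the groups did not overlap, while 35.7% of all genes were higher in KD without overlap. In 5NC it was at 0, 0 and 0.09 RPKM and in OV at 0, 0.17 and 0. It reached 1 RPKM in KD alone and so passed the filter through that group, and its difference between KD and 3NC, 0.96 on the log2(RPKM + 1) scale, is given with no test. Ythdc1, a reader of methylated adenosine in RNA 622.8 kb away on the other side, was at 30.01 to 35.64 RPKM in KD and 33.02 to 34.44 in 3NC, with a difference of -0.06 on the log2(RPKM + 1) scale (SE 0.06, limma adjusted p = 0.47). Sult1b1, a sulfotransferase gene and the nearest listed neighbour at 31.1 kb, was at 0.06, 0.06 and 0 RPKM in KD and at 0 in the other 9 libraries. Csn1s2a, another casein gene 292.3 kb away, was at 0.23 RPKM in KD replicate 3 and at 0 in the other 11. Tmprss11f, a serine protease gene, was highest in 3NC, at 0.10 RPKM.

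**Figure D4:**
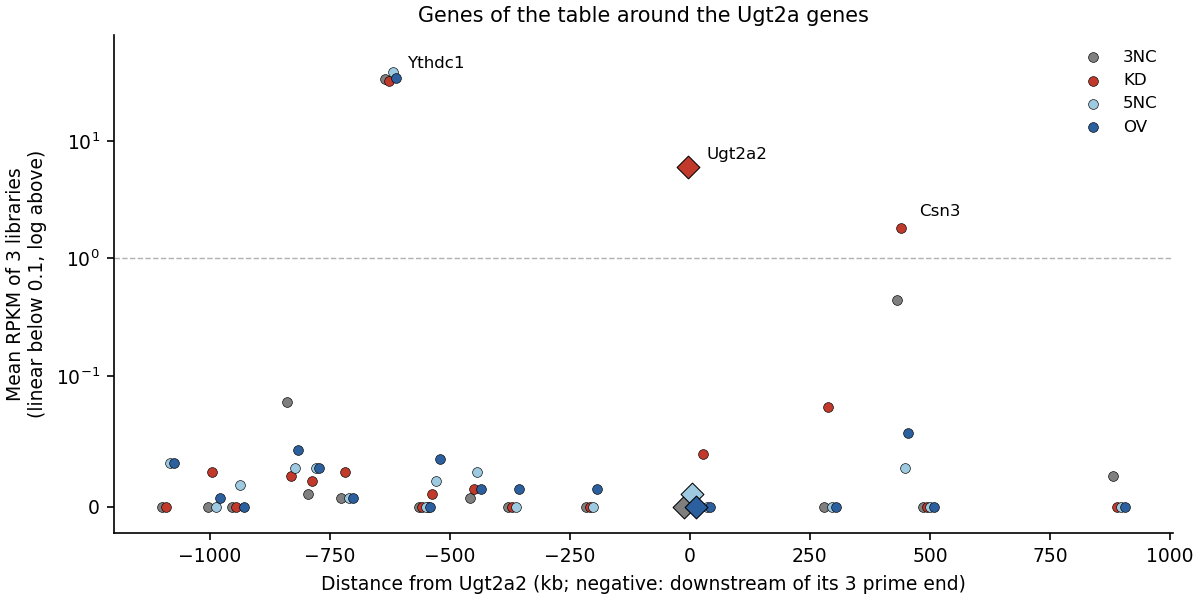
Mean RPKM of 3 libraries per group for the 17 listed genes around the Ugt2a genes (circles) and for Ugt2a2 (diamonds), against the distance from Ugt2a2 in kb. The vertical axis is linear below 0.1 and logarithmic above, and a dashed line marks 1 RPKM. Ythdc1 stands above that line in all groups, and Ugt2a2 and Csn3 do so in KD alone.

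Because Ugt2a1 and Ugt2a2 start at different promoters, windows from 250 bases before to 50 bases after the start of each gene (RefSeq, GRCm38.p6) were searched on both strands for 4 short motifs. All 3 members had a promoter entry. The TATA core TATAAA or TTTATA occurred once in Ugt2a1, at -168 from the start, and once in Ugt2a2, at -137. It was not found in Ugt2a3, and 13.62% of 32851 promoters held it. Whether these matches act as TATA boxes was not tested. The AP-1 motif TGAGTCA or TGACTCA occurred once in Ugt2a2, 68 bases before the start, and in neither other member, and 5.20% of promoters held it. The dioxin response core GCGTG or CACGC (32.39% of promoters) and the E-box CACGTG (7.15%) were found in none of the 3 windows. None of the 4 motifs contains another. The 30 bases around the AP-1 match, chr5:87482308-87482337 on the minus strand, are printed with the match in capitals because it was the one motif found in Ugt2a2 and not in Ugt2a1.
Ugt2a2 promoter: tgcctctgttcTGACTCAgaatgtctatat
A match of letters says nothing about binding, and no binding was measured.

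Other glucuronosyltransferase genes did not share the pattern of Ugt2a2. Of 9 UGT1A genes 5 were listed and 2 tested. Like the Ugt2a genes, the UGT1A genes share their later exons, so the division of reads among them is uncertain. Ugt1a6a, which conjugates phenols, was at 4.14, 4.62 and 4.15 RPKM in 3NC and fell to 1.03, 1.02 and 1.05 in KD. In 5NC it was at 3.15, 3.20 and 2.82 RPKM and in OV at 2.10, 1.92 and 2.13. The difference was -1.38 between KD and 3NC (SE 0.07, limma adjusted p = 1.03e-09) and -0.41 between OV and 5NC (SE 0.07, limma adjusted p = 0.0025), both on the log2(RPKM + 1) scale. Ugt1a6b was at 0.67 to 1.57 RPKM in 3NC and 0 to 0.32 in KD, with a difference of -0.94 (limma adjusted p = 0.000415). The listed UGT1A genes summed to 5.35 to 5.72 RPKM in 3NC and to 1.05 to 1.35 in KD. Of the 2 tested, 1 fell and 0 rose at the study's threshold, where 1.08% of all genes were lower and 0.498% were higher in KD.

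None of the 5 listed UGT2B genes passed the filter, and their sum was at most 0.12 RPKM in any library. Ugt2b1, the highest of them on average, was at 0 to 0.06 RPKM. Ugt3a1 was at 0 in all 12 libraries. Ugt8a, which makes galactosylceramide and not glucuronides, rose from 3.68, 3.79 and 3.46 RPKM in 3NC to 6.71, 5.70 and 6.52 in KD, a difference of 0.65 (SE 0.08, limma adjusted p = 9.99e-06) that stayed under the study's limit of 1. In OV it was lower than in 5NC, with a difference of -0.28 (limma adjusted p = 0.029). This call at the wider limit was lost under 8 of 11 alternatives, with the adjusted p reaching 0.144 at a difference of -0.17 after quantile normalization and 0.142 at -0.19 without OV replicate 2. In KD the listed UGT genes with the highest RPKM were thus Ugt8a and Ugt2a2, and in 3NC they were Ugt1a6a and Ugt8a.

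The supply of UDP-glucuronic acid was read from 8 genes, all listed and tested. At the wider limit of 0.05 on the adjusted p, 4 rose and 2 fell in KD, where 31.9% of all genes were higher and 23.5% lower, and the median difference was 0.14 against 0.04 over all genes. Of those that rose, Pgm2l1 lost its call under 8 of 11 alternatives, with an adjusted p of up to 0.175 in limma. Ugdh, which oxidises UDP-glucose to UDP-glucuronic acid, was the 1 gene past the study's threshold. It was at 139.02, 136.61 and 130.99 RPKM in 3NC and at 65.24, 62.40 and 73.60 in KD, a difference of -1.01 (SE 0.06, limma adjusted p = 1.59e-09). Without 3NC replicate 1, KD replicate 1 or KD replicate 2 the difference was -0.99, -0.99 and -0.96, just inside the limit of 1. The vector control 5NC had 68.12, 70.67 and 66.46 RPKM and OV 71.04 to 74.83, so that KD overlapped both and 3NC alone was high. The difference of Ugdh between 5NC and 3NC was -0.98 (limma adjusted p = 1.35e-09). Ugp2, which makes UDP-glucose, was at 87.83, 87.84 and 104.22 RPKM in KD and 66.82 to 74.80 in 3NC. Gusb, the lysosomal enzyme that removes glucuronic acid, was at 28.65 to 29.78 RPKM in KD and 21.58 to 24.13 in 3NC. Both passed the wider limit (limma adjusted p = 0.000139 and 4.2e-05) and were named after their values were seen.

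**Figure D5:**
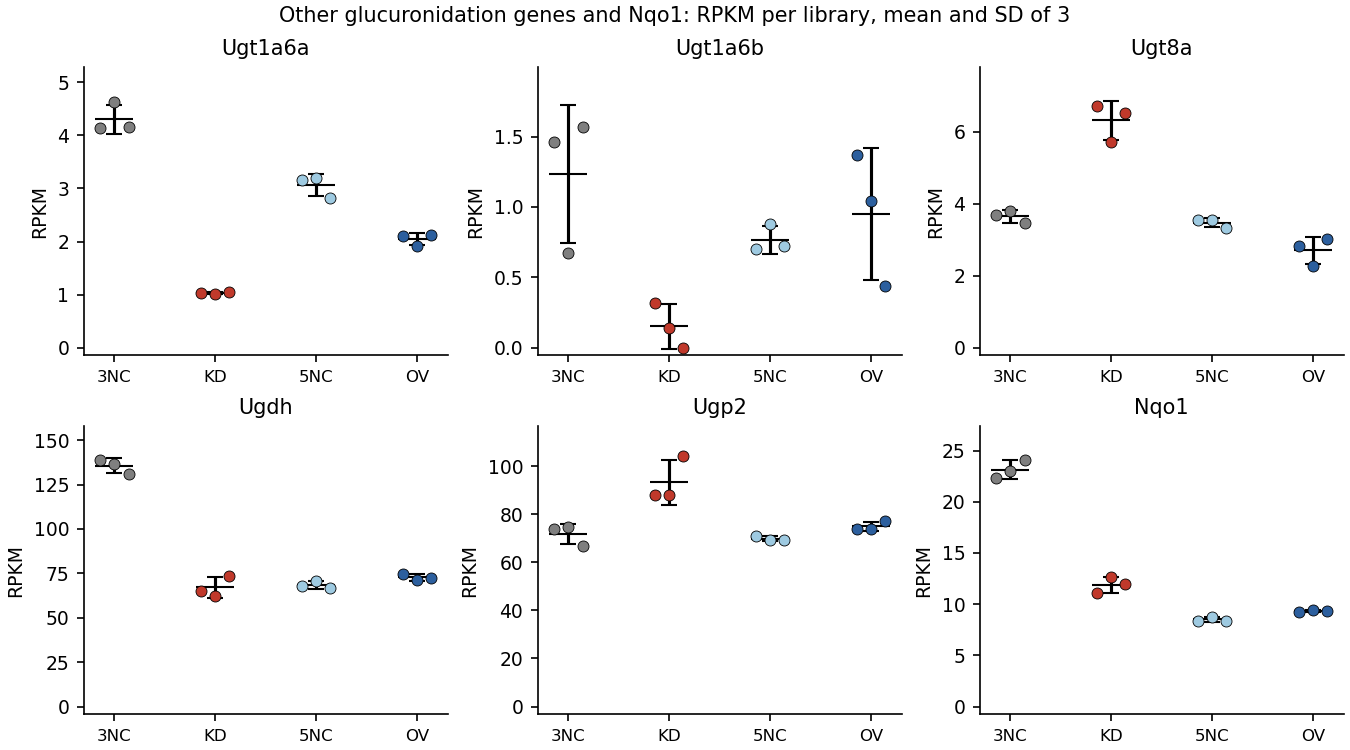
RPKM in each library (points) with the mean and SD of 3 libraries (bars) for Ugt1a6a, Ugt1a6b, Ugt8a, Ugdh, Ugp2 and Nqo1 in the 4 groups. Ugt1a6a is lowest in KD, Ugt8a and Ugp2 are highest there, and Ugdh and Nqo1 are high in 3NC alone.

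Genes that act beside the UGT enzymes were read next. Of 9 export pumps of conjugates 5 were tested, and at the wider limit, 1 rose and 3 fell in KD, beside 31.9% of all genes higher and 23.5% lower, with a median difference of -0.37 against 0.04 over all genes. Abcg2, the pump with the highest level, was at 57.86 to 64.29 RPKM in KD and 44.38 to 47.28 in 3NC (difference 0.39, SE 0.05, limma adjusted p = 1.01e-05). Of 14 genes of sulfation, which competes with glucuronidation, 9 were listed and 3 tested, and 2 rose and 0 fell at the same limit, again beside 31.9% and 23.5% of all genes. Papss1, which makes the sulfate donor, was at 51.90 to 54.18 RPKM in KD and 50.85 to 51.58 in 3NC (difference 0.05, limma adjusted p = 0.34). None of these genes passed the study's threshold in KD.

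The nuclear receptors and other factors known to act on UGT genes were silent or low in many cases. Of 24 such factors, all listed, 12 passed the filter, and at the wider limit, 2 rose and 4 fell in KD, beside 31.9% of all genes higher and 23.5% lower. The median difference was -0.01, and 0 passed the study's threshold. Arnt, which rose, lost its call under 3 of 11 alternatives and Pparg, which fell, under 2, all of them leaving out a library. Hnf4a and Cdx2 were at 0 in all 12 libraries, and Nr1i2 and Nr1i3 were at 0.25 RPKM or below in each. Nfe2l2, a sensor of oxidative stress, was at 34.52 to 37.11 RPKM in KD and 49.68 to 52.07 in 3NC, a difference of -0.49 (SE 0.04, limma adjusted p = 2.85e-07). Of 12 target enzymes of such receptors 9 were listed and 5 tested, and 3 fell and 0 rose in KD at that limit, where 23.5% of all genes were lower and 31.9% higher. Of the 3, Por lost its call under 5 of 11 alternatives. Nqo1, a quinone reductase, was at 11.12 to 12.68 RPKM in KD, 22.29 to 24.12 in 3NC and 8.36 to 8.76 in 5NC. Its difference from 3NC was -0.90 in KD and -1.34 in 5NC (limma adjusted p = 7.42e-09 and 6.38e-11), and the second passed the study's threshold, where 1.56% of genes were higher and 1.05% lower in 5NC.

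In OV against 5NC the same lists were read at the wider limit, where 8.07% of all genes were higher and 13.9% lower. Of the genes tested in each, 0 rose and 1 of 8 fell among those of UDP-glucuronic acid, 0 rose and 2 of 5 fell among the pumps, 1 rose and 1 of 12 fell among the factors, and 2 of 5 rose and 0 fell among the target enzymes. These 7 calls each failed under 5 to 9 of 11 alternatives. At the study's threshold 0 genes of any list were called, as for the whole table.

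Markers of the tissues in which Ugt2a genes are usually active were read beside Ugt2a2. Of 8 hepatocyte markers 7 were listed and 0 tested, with sums of 0.23 to 0.29 RPKM in KD and 0.08 to 0.38 in 3NC, and Alb and Ttr were at 0 in all libraries. Of 7 enterocyte markers 3 were listed, and they summed to at most 0.20 RPKM. Of 11 olfactory markers 8 were listed and 3 tested, and the summed level was 12.02 to 15.99 RPKM in KD, 8.28 to 9.37 in 3NC, 9.25 to 10.16 in 5NC and 8.91 to 9.91 in OV. All 3 tested rose at the wider limit, where 31.9% of all genes were higher, and 0 passed the study's threshold. They were Adcy3, Gng13 and Scnn1a, which are also active in other tissues. Adcy3 was at 7.31 to 8.20 RPKM in KD and at most 6.88 in the 9 other libraries, and Gng13 at 2.2 to 4.22 in KD and at most 1.45 elsewhere. KD lay above all 9 other libraries in this way for 20.5% of all genes tested. With a pseudocount of 0.1 the call of Gng13 was lost (limma adjusted p = 0.0962). Scnn1a was at 2.17 to 3.40 RPKM in KD and 1.07 to 1.49 in 3NC, but KD overlapped 5NC at 2.54 to 2.71 and OV at 2.61 to 3.17. The defining marker Omp was at 0.13 RPKM or below and Cnga2 at 0.02 or below in every library. The kidney list had 1 tested gene, Lrp2, which is also active elsewhere. It was at 7.98 to 8.63 RPKM in KD and 7.17 to 7.49 in 3NC, and 35.7% of all genes were likewise higher without overlap. The difference of 0.14 did not pass the wider limit (limma adjusted p = 0.25). In 5NC it was at 10.42 to 11.12 RPKM and in OV at 7.07 to 10.72.

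The label of the cells was read from germ cell and somatic testis markers. Of 15 germ cell markers 14 were listed and 11 of those stayed below 1 RPKM in all libraries. Ret, Kit and Pou5f1 were at 0 throughout, Ddx4, Dazl and Zbtb16 were at 0.07 RPKM or below, and Gfra1 was at 0.17 or below. Etv5 was at 7.72 to 7.89 RPKM in 3NC and 2.18 to 2.49 in KD (difference -1.40, limma adjusted p = 2.16e-09), and in 5NC at 2.70 to 3.52. Itga6, an integrin of the same list, was at 4.98 to 6.08 RPKM in 3NC and higher in KD at 6.71 to 7.76 (difference 0.34, limma adjusted p = 0.00709). Of the 3 germ cell markers tested, 1 rose and 2 fell in KD at the wider limit, beside 31.9% and 23.5% of all genes. The germ cell list summed to 14.72 to 16.11 RPKM in 3NC and 10.23 to 11.86 in KD, against 8.88 to 10.19 in 5NC and 7.31 to 9.31 in OV. Of 10 Sertoli markers 9 were listed and 5 tested, and Wt1 was at 49.83 to 57.46 RPKM in all libraries, while Sox9 and Amh were at 0.15 or below. The sums of this list were 62.02 to 64.03 RPKM in 3NC and 63.53 to 66.43 in KD. Clu, a Sertoli marker that other cells also make, was at 2.40 to 3.13 RPKM in 3NC and rose in KD, where it lay between 4.90 and 6.47 (difference 0.85, limma adjusted p = 4.8e-06). It was the 1 of the 5 tested that passed the wider limit in KD, beside 31.9% of all genes higher, and 0 fell, with a median difference of 0.0021 over the 5. In 5NC against 3NC, 1 of the 5, Clu, was higher and 1, Rhox5, lower at the study's threshold, beside 1.56% and 1.05% of all genes.

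The smooth muscle markers of peritubular cells summed to 24.37 to 25.34 RPKM in 3NC and 38.32 to 41.46 in KD, against 28.78 to 32.47 in 5NC and 21.38 to 25.77 in OV. Of the 4 markers 3 were tested, and all 3 rose in KD at the wider limit, beside 31.9% of all genes. Acta2, smooth muscle actin, was at 8.16 to 9.10 RPKM in 3NC and rose in KD, where it lay between 17.31 and 20.18 (difference 1.04, limma adjusted p = 3.27e-08) and was at 19.51 to 23.10 RPKM in 5NC, where Ugt2a2 was at 0 to 0.03. Des, the muscle filament desmin, was at 13.23 to 14.26 RPKM in KD, 10.98 to 11.73 in 3NC, 5.97 to 6.93 in 5NC and 5.63 to 7.33 in OV. Cnn1, the actin-binding protein calponin, was at 6.88 to 7.53 RPKM in KD, 4.63 to 5.21 in 3NC, 2.54 to 3.24 in 5NC and 2.98 to 3.68 in OV. In these 2, unlike Acta2, KD lay above all 9 other libraries, as it did for 20.5% of all genes tested. Without 3NC replicate 3, Des lay just past the wider limit and was not called (limma adjusted p = 0.05 after rounding). Both were lower in 5NC than in 3NC (limma adjusted p = 1.96e-06 for Des and 1.21e-05 for Cnn1). The Leydig list summed to at most 2.39 RPKM, with Cyp11a1 at 0.02 or below. The macrophage list summed to 4.13 to 5.67 RPKM in 3NC and 2.55 to 2.89 in KD, nearly all of it Cd68. It summed to 2.05 to 2.34 RPKM in 5NC and 1.33 to 2.68 in OV, so 3NC alone was high. Ptprc was at 0.07 or below. The part of other cell types in the level of Ugt2a2 was not tested, and in bulk libraries fewer cells of a type and less RNA per cell cannot be told apart.

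Libraries of a group were alike, with Spearman correlations over genes of 0.9875 to 0.990, and no pair of a group had more than 2.96% identical values among genes above 0. The controls 3NC and 5NC differed in many genes although both are vector controls, and the vector cannot be told apart from the culture it was made in. Ugt2a2 was at 0 in 3NC and at 0 to 0.03 RPKM in 5NC, and each of the 9 libraries outside KD, with either vector, was at or next to 0.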

How the data were processed

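RNA of 12 C18-4 libraries was measured. The authors enriched mRNA with oligo(dT), although the labels name total RNA, mapped reads to reference genes with SOAPaligner 2.20 and deposited RPKM values. The aligner was set to report all hits of a read. The genome build and the way such reads were counted per gene are not given in the sources used here, and RPKM keeps no read counts, so depth was only estimated.

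A gene was tested when 3 or more libraries reached 1 RPKM. The log2(RPKM + 1) values of all 12 libraries went into 1 limma fit by group (version 3.58.1, R 4.3.3) with eBayes and a trend on the mean, followed by Benjamini-Hochberg adjustment. Fold differences are on this scale and understate changes of low genes. The study's threshold is an adjusted p of at most 0.001 with an absolute log2 difference of at least 1. The study applied these limits with DEGseq and reported other numbers of genes, so the counts given here are those of limma alone. The summed level of the members was tested with an exact permutation test. Same-numbered libraries did not deviate together (correlations of -0.178 to 0.176), so the fit has no replicate block.

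The members and gene lists were chosen with earlier results of these data known. Genes named are the members, at most 5 genes per list past the study's threshold in any of 3 comparisons or else the listed gene with the highest mean, listed neighbours, the 5 most like profiles, genes switched on from 0, and Purb. Others were named after their values were seen. Gene models are from GENCODE M21. Figures were drawn with matplotlib 3.10.9. An item covered by the searches is not reported here.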

Additional observations from a re-analysis of the deposited data

How the results depend on the processing

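Of 600 values recomputed under alternatives, 568 kept their side of the threshold or stayed within their limit, 21 moved, 4 lost the study's threshold, 7 gained it and 0 reversed. In KD against 3NC, limma called 57 genes higher and 123 lower at the study's threshold. A pseudocount of 0.1 gave 166 and 197, and an adjusted p of at most 0.05 with no fold limit gave 3647 and 2688. Leaving out each library gave 58 to 63 higher and 116 to 125 lower. In OV against 5NC, where 0 genes were called, the pseudocount of 0.1 gave 2 higher and 2 lower, quantile normalization 1 higher, the replicate block 1 lower, and the wide threshold 923 and 1595. Leaving out each library gave 0 to 1 higher and 0 to 9 lower, the 9 without OV replicate 3. In 5NC against 3NC, 178 were higher and 120 lower, and the pseudocount of 0.1 gave 299 and 207 and the wide threshold 3540 and 2926. The cause of these changes was not tested.

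The difference of Ugt2a2 between KD and 3NC was 2.80, and 5.92 with a pseudocount of 0.1, since the control is at 0. Leaving out each library gave 2.72 to 2.85, and the replicate block gave 2.80. Between OV and 5NC it was -0.13 to 0 over the alternatives. The summed level gave -0.015 to 0 (exact permutation p 0.8 to 1.0). These p-values carry no information, since only 5NC replicate 3 was above 0 in these groups. With Spearman correlation 0 of the 5 most like genes were shared. At 0.3 RPKM, a limit added after the data were seen, 4 genes in place of 1 were switched on from 0. Of other named genes, the KD difference of Acta2 was 0.99 without KD replicate 2, and that of Ugt1a6b passed at -2.55 with the pseudocount of 0.1, at -1.13 without 3NC replicate 2 and at -1.04 without KD replicate 1. Between 5NC and 3NC, Ugdh passed without 3NC replicate 3 (limma adjusted p = 1.92e-08). The labels give the groups the same replicate numbers and nothing ties them. The replicate block left 58 higher and 123 lower genes in KD. Over 61 listed or named genes it changed 0 calls at the study's threshold, and at the wider limit 2 in KD, 2 in OV and 1 in 5NC. With RPKM alone, counting error could not be modelled.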
